A study of Rattus norvegicus with 6 samples.

Results

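The genes of 10 plasma membrane amino acid carriers were followed in rat liver tissue after embolization: Slc7a1, Slc7a2, Slc7a5, Slc7a6, Slc7a7, Slc38a1, Slc38a2, Slc38a3, Slc38a4 and Slc1a5. They were taken by symbol from the deposited table, where each of the 10 matched 1 of 32623 genes, and all 10 passed the low-count filter that left 14298 genes for testing. Relative to blank microspheres, tissue given zinc sulfide microspheres held more transcript of the hepatocyte carriers Slc38a3 and Slc38a4 and less of Slc7a1, Slc7a5, Slc7a6, Slc1a5 and Slc38a1. Slc7a2, Slc7a7 and Slc38a2 did not pass the test.

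Amino acid carriers set how much arginine, glutamine and leucine a cell can take up or release. Hepatocytes are known to use a set of their own: Slc38a3 moves glutamine, asparagine and histidine and Slc38a4 moves small neutral amino acids, while the low-affinity form encoded by Slc7a2 brings in arginine. Dividing and tumour cells are known instead for the widespread arginine carrier Slc7a1, the glutamine exchanger Slc1a5 and the leucine exchanger Slc7a5. Slc7a5, Slc7a6 and Slc7a7 are light chains that reach the cell surface only when paired with the heavy chain encoded by Slc3a2.

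Messenger RNA was sequenced from 6 rat (Rattus norvegicus) liver samples, 3 embolized with blank microspheres (GM, the control) and 3 with zinc sulfide microspheres (GZM). Embolization, which plugs the arteries of a tissue, is shared by both groups, so there is no sample of untreated liver. The series title names hepatocellular carcinoma and the labels give the tissue as liver only, so how much tumour a piece held is not known, and no source used here gives strain, age or time after embolization. The labels number samples as replicate biosamples and do not call them separate animals. The p-values thus measure only the spread between these samples, which may not be the spread between animals.

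Total counts ran from 13443115 to 16604067 per library. The 10 hepatocyte markers together took 2.34% to 6.95% of counts in GM and 11.3% to 11.8% in GZM. GM 3, at 6.95%, stood nearest to GZM, and the other GM libraries were at 3.21% and 2.34%. The 9 cell division markers took 0.0523% to 0.173% of counts in GM, GM 3 being lowest, and 0.0119% to 0.0144% in GZM. In bulk tissue, fewer cells of a type and less RNA per cell cannot be told apart.

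Levels between groups are given as CPM (counts scaled to the library's size), adjusted with TMM factors, which correct for a few abundant genes taking up the reads. Calls are those of edgeR's quasi-likelihood test at a Benjamini-Hochberg adjusted p under 0.05. By that rule 2 of the 10 genes rose and 5 fell in GZM, or 7 called, where 44.0% of all tested genes were called (22.2% higher, 21.7% lower). The groups did not overlap for the same number of the 10 genes, 7, against 58.1% of all tested genes (28.4% higher and 29.7% lower in GZM). The median log2 fold change was -0.48 over the 10 genes and -0.09 over all tested genes. Scaling by library totals in place of TMM factors moved the median of all genes by -0.83 on the log2 scale, and still called 2 of the 10 higher and 5 lower, against 68.7% of all genes called (9.20% higher, 59.5% lower). With library totals the folds of all 7 called genes moved by over 1.5 times: the log2 fold change became -3.91 for Slc7a1, -3.05 for Slc7a5, -2.07 for Slc7a6, -3.14 for Slc1a5, -2.43 for Slc38a1, 1.45 for Slc38a3 and 1.89 for Slc38a4.

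**Figure D1:**
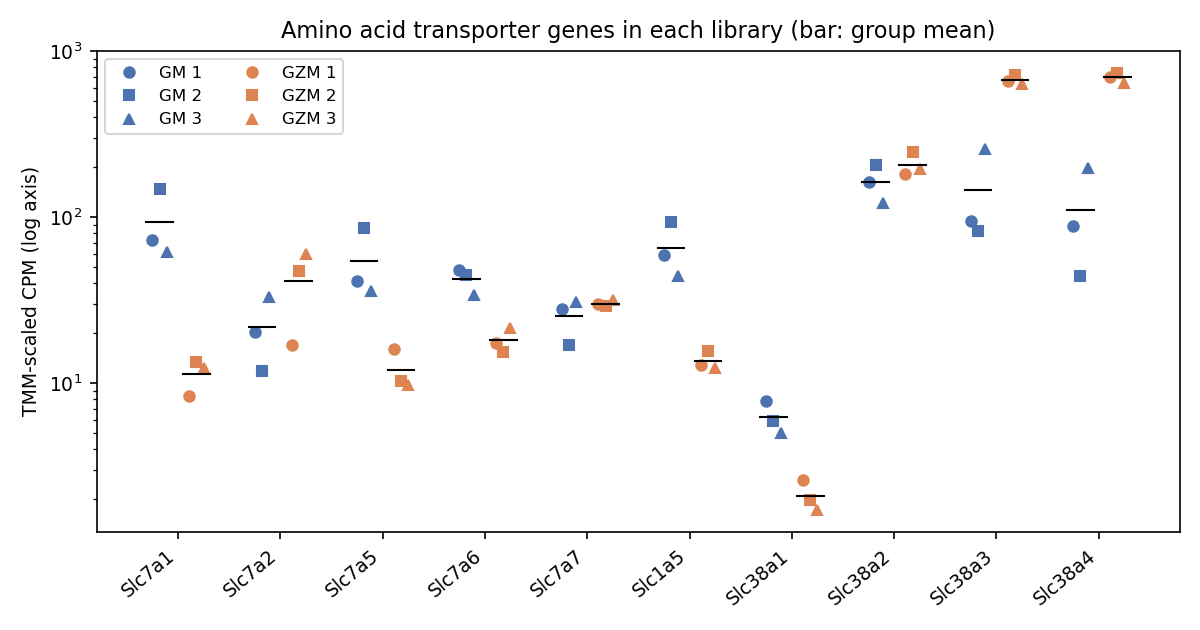
TMM-scaled CPM (log axis) of the 10 amino acid transporter genes, with a point for each of the 6 libraries, blue for GM and orange for GZM, and a bar at the group mean. For 7 genes the GM and GZM points do not overlap, Slc38a3 and Slc38a4 being higher in GZM and Slc7a1, Slc7a5, Slc7a6, Slc1a5 and Slc38a1 lower.

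Arginine and lysine enter cells through Slc7a1 and Slc7a2. The first fell and the second did not pass the test. Slc7a1 (ENSRNOG00000000924, chromosome 12, 8032809 to 8108972, plus strand in the deposited table, whose genome build could not be settled), the widespread cationic amino acid carrier, stood at 73.1, 147 and 61.7 CPM in GM 1, 2 and 3 and at 8.42, 13.4 and 12.4 CPM in GZM 1, 2 and 3. Every GZM library was below every GM library, and GM 2 was the highest. It was 8.23-fold lower in GZM (94.1 ± 46.5 against 11.4 ± 2.63 CPM, SD, n = 3 each), with a log2 fold change of -3.04 ± 0.37 (SE, edgeR adjusted p = 0.00226).

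Slc7a2 (ENSRNOG00000011016, chromosome 16, 54460067 to 54513349, minus strand), whose product carries the same amino acids in hepatocytes and activated macrophages, was at 20.3, 11.8 and 33.1 CPM in GM and 17.0, 47.6 and 60.0 CPM in GZM. GZM 1 lay within the GM range and the other GZM libraries above it. The log2 fold change was 0.94 (95% interval -0.20 to 2.08, edgeR adjusted p = 0.157). Its call turned on 2 libraries, GM 3, the highest of GM, and GZM 1, the lowest of GZM. Without GM 3 it passed as higher at 1.42 (edgeR adjusted p = 0.0453) and without GZM 1 at 1.32 (0.0386). Leaving out both, a setting added after the data were seen, gave 1.82. Each of these settings removes a value that opposes a rise, so none of them is support for a rise. With library totals Slc7a2 stood at 0.16 (adjusted p = 0.766). Arg1 and Ass1, urea cycle enzymes that break down and rebuild arginine and that were named after their values were seen, had their lowest GZM level in GZM 1 as well. Arg1 was at 845, 1971 and 1406 CPM in GZM 1, 2 and 3, and Ass1 at 440, 1013 and 779 CPM. How many other genes were lowest in GZM 1 was not counted. The hepatocyte markers together were not, at 11.7%, 11.8% and 11.3% of counts in GZM 1, 2 and 3.

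Within a library the balance between these carriers does not depend on scaling. Measured per exon length as FPKM, Slc7a2 made up 40.9%, 16.7% and 57.2% of the summed Slc7a1 and Slc7a2 level in GM 1, 2 and 3, and 83.5%, 89.9% and 92.4% in GZM. All GZM libraries were above all GM libraries, by 50.3 percentage points between the means (38.3% ± 20.4 against 88.6% ± 4.59, SD, n = 3 each). An exact two-sided permutation test gave p = 0.1, the smallest that 3 against 3 samples allow, and 0.15 adjusted over the 3 such quantities computed. In GM 2, Slc7a1 was 5 times the FPKM level of Slc7a2, and in GZM 3, Slc7a2 was 12.1 times that of Slc7a1.

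Promoter sequence was looked at across the 10 genes, whichever way they moved. RefSeq (build GRCr8) gave a promoter, from 250 bases before to 50 after the start of the gene, for 7 of the 10 genes: Slc7a1, Slc7a5, Slc7a6, Slc7a7, Slc38a1, Slc38a2 and Slc38a4. They were searched on both strands for 3 motifs. TGATGNAA is the core bound by C/EBP and ATF factors when amino acids run short, and 3.98% of all 33469 promoters of this length hold it. CACGTG, the E-box bound by MYC and others, is held by 6.42%, and CAAAGTCC, the core of sites for the hepatocyte factor HNF4A, by 1.40%. The first was found in the promoters of Slc7a1 and Slc38a1, the E-box in that of Slc7a5, and the HNF4A core in none of the 7. Each of these promoters held 1 match, so no matches overlapped, and a match describes the letters only. The genes with a match all fell, and so did Slc7a6, whose listed window held no match, and Slc1a5, for which no promoter was given. The bases just before the listed start of Slc7a6 read ttgttttctttgccag, like the end of an intron (a stretch cut out of the RNA). That window may thus not be the promoter of Slc7a6. The promoters with a match are shown 5′ to 3′ on the strand of the gene, with the matched bases in capitals. They lie at chr12:11664238-11664537 (plus strand, match starting 30 bases before the start of Slc7a1), chr7:129681352-129681651 (minus strand, 142 bases before that of Slc38a1) and chr19:66872363-66872662 (minus strand, 179 bases before that of Slc7a5).
Slc7a1: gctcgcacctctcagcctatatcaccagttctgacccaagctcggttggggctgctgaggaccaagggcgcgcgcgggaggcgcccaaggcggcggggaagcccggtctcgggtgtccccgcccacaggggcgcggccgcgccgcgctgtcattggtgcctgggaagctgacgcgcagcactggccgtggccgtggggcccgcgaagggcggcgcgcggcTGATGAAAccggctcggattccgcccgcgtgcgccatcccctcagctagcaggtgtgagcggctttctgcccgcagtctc
Slc38a1: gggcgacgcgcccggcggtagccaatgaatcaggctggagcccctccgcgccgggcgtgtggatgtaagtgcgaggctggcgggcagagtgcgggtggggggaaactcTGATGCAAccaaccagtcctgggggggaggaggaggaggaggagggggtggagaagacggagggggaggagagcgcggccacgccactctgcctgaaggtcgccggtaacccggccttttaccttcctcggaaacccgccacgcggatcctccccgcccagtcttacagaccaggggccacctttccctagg
Slc7a5: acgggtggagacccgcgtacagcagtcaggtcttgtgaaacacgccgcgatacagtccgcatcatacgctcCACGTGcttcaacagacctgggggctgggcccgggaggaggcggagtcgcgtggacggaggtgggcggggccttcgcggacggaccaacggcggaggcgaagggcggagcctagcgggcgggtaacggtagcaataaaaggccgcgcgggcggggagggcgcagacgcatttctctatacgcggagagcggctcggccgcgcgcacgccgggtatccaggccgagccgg

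Leucine and other large neutral amino acids pass through Slc7a5, and both of its relatives in the list, Slc7a6 and Slc7a7, exchange cationic for neutral amino acids. Slc7a5 (ENSRNOG00000018824, chromosome 19, 54693959 to 54722563, minus strand in the deposited table) was at 41.3, 86.2 and 36.1 CPM in GM and 16.0, 10.4 and 9.74 CPM in GZM. No GZM library reached a GM library, and GM 2 was again the highest. It fell 4.54-fold (54.5 ± 27.5 against 12.1 ± 3.47 CPM, SD, n = 3 each), with a log2 fold change of -2.18 ± 0.37 (SE, edgeR adjusted p = 0.00403).

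Slc7a6 (ENSRNOG00000019943, chromosome 19, 38162515 to 38179149, plus strand) stood at 48.0, 45.2 and 34.1 CPM in GM and 17.5, 15.4 and 21.7 CPM in GZM. The groups were apart here too, with a smaller spread in GM than for Slc7a5. Slc7a6 fell by 1.22 on the log2 scale, or 2.33-fold (SE 0.20, edgeR adjusted p = 0.00369). Slc7a7 (ENSRNOG00000010296, chromosome 15, 33013504 to 33051129, minus strand), which hands arginine and lysine out of epithelial cells and macrophages, was at 28.2, 17.0 and 30.9 CPM in GM and 29.9, 29.0 and 31.6 CPM in GZM. GM 2 alone stood low, and the groups overlapped. Its log2 fold change of 0.25 (95% interval -0.28 to 0.78, edgeR adjusted p = 0.404) turned to -0.56 with library totals (adjusted p = 0.0529).

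Their common heavy chain Slc3a2 (ENSRNOG00000018487, chromosome 1) was at 140, 238 and 184 CPM in GM and 108, 133 and 135 CPM in GZM. The GZM libraries lay below the GM libraries, though GZM 3 and GM 1 were close. It did not pass (log2 fold change -0.58 ± 0.23 SE, edgeR adjusted p = 0.0705), and passed with library totals (-1.42, edgeR adjusted p = 0.00196) and without GM 1 (-0.75, edgeR adjusted p = 0.0457). It also passed in the 3 settings of limma on FPKM (-1.38, -1.38 and -1.37, adjusted p from 0.00209 to 0.00701). The log2 ratio of Slc3a2 to the summed FPKM of Slc7a5, Slc7a6 and Slc7a7 was 0.74, 1.30 and 1.27 in GM and 1.00, 1.46 and 1.31 in GZM. These overlapped, and the difference of 0.15 between the means was within the spread (exact two-sided permutation p = 0.5, adjusted p = 0.5). In GZM that sum was mostly Slc7a7, which did not pass (mean 12.7 FPKM, against 3.76 for Slc7a6 and 2.60 for Slc7a5). In GM the means were 18.8, 15.7 and 21.5 FPKM in the same order. Slc7a8 and Slc7a11, which also pair with Slc3a2, were not in the sum. Against Slc7a5 alone, Slc3a2 was 4.64 to 8.55 times as high in GM and 11.3 to 23.3 times in GZM on the FPKM scale.

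Glutamine enters through Slc1a5 and the Slc38 family. Slc1a5 and Slc38a1 fell, Slc38a3 and Slc38a4 rose, and Slc38a2 did not pass the test. Slc1a5 (ENSRNOG00000015948, chromosome 1, 78710539 to 78724794, plus strand in the deposited table), which swaps glutamine for other neutral amino acids, was at 59.4, 93.6 and 44.4 CPM in GM and 12.9, 15.7 and 12.4 CPM in GZM. The highest GZM library was well below GM 3, the lowest of GM. It was 4.82-fold lower (65.8 ± 25.2 against 13.7 ± 1.74 CPM, SD, n = 3 each), with a log2 fold change of -2.27 ± 0.28 (SE, edgeR adjusted p = 0.00229).

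Slc38a3 (ENSRNOG00000016827, chromosome 8, 116406241 to 116422366, minus strand in the deposited table), the sodium-coupled glutamine carrier of hepatocytes, stood at 95.5, 82.9 and 257 CPM in GM and 666, 724 and 634 CPM in GZM. GM 3 was well above the other GM libraries and still below all of GZM. It rose 4.65-fold (145 ± 97.2 against 675 ± 45.7 CPM, SD, n = 3 each), with a log2 fold change of 2.22 ± 0.44 (SE, edgeR adjusted p = 0.00627). Without GM 3 the rise was 7.77-fold (log2 fold change 2.96, edgeR adjusted p = 9.52e-05).

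Slc38a4 (ENSRNOG00000006653, chromosome 7, 138459504 to 138512952), a carrier of small neutral amino acids found mainly in liver, was at 88.4, 44.5 and 199 CPM in GM and 704, 745 and 641 CPM in GZM. The pattern over libraries was that of Slc38a3, with GM 3 highest of GM and the groups apart. It rose 6.29-fold (111 ± 79.8 against 697 ± 52.3 CPM, SD, n = 3 each), with a log2 fold change of 2.65 ± 0.50 (SE, edgeR adjusted p = 0.00562), or 10.7-fold without GM 3 (3.43, edgeR adjusted p = 0.000171).

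Slc38a1 (ENSRNOG00000005291, chromosome 7, 137975549 to 138039984), a carrier of neurons and many dividing cells, was the least abundant of the 10, at 7.86, 5.92 and 5.04 CPM in GM and 2.61, 1.98 and 1.73 CPM in GZM. These GZM levels rest on 26, 21 and 22 counts, and all lay below the GM libraries. It fell by 1.58 on the log2 scale, or 2.99-fold (SE 0.32, edgeR adjusted p = 0.00671). Slc38a2 (ENSRNOG00000006305, chromosome 7, 138088649 to 138100841), the widespread carrier that cells are known to raise when amino acids run short, was at 162, 208 and 122 CPM in GM and 181, 246 and 195 CPM in GZM. The groups overlapped. Its log2 fold change of 0.34 (95% interval -0.21 to 0.89, edgeR adjusted p = 0.278) turned to -0.53 with library totals (adjusted p = 0.117).

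**Figure D2:**
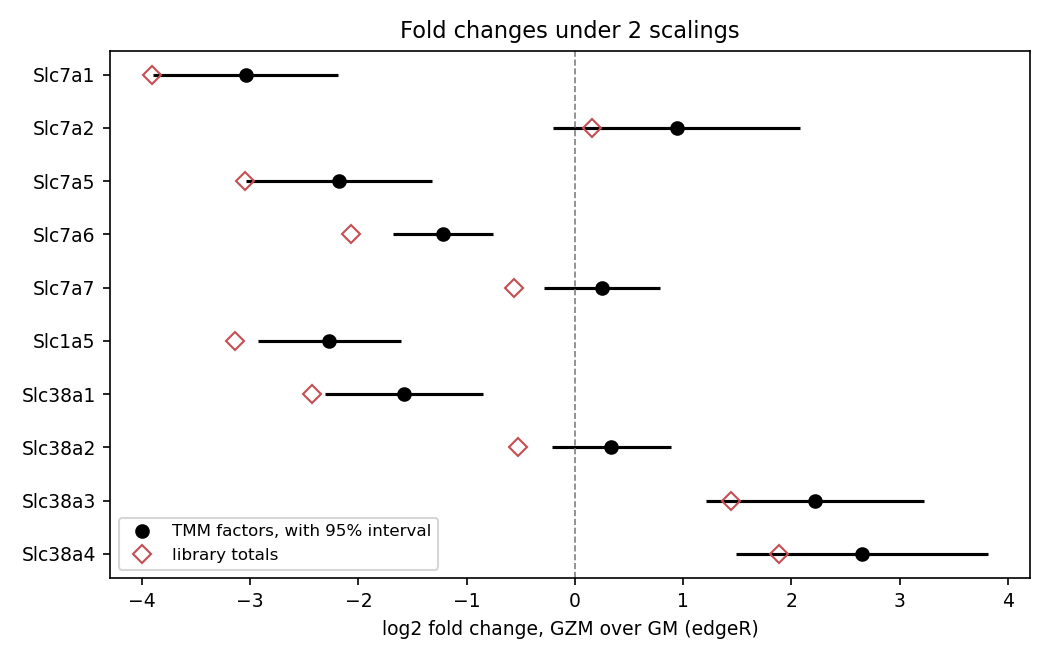
Log2 fold changes of the 10 genes in GZM over GM from edgeR, as black points with 95% intervals on the TMM scale and as red diamonds with library totals. The 7 called genes keep their side of 0 on both scales, while Slc7a7 (0.25 and -0.56) and Slc38a2 (0.34 and -0.53) change sides.

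Slc38a1, Slc38a2 and Slc38a4 lie next to each other on chromosome 7, all on the minus strand, within 537 kb (137975549 to 138512952 in the deposited table). These neighbours did not move together. Slc38a1 fell by 1.58 on the log2 scale, Slc38a2 did not pass and Slc38a4 rose by 2.65. The table lists 5 other features in that span, and none had enough counts to be tested. RefSeq (GRCr8) likewise has no other protein-coding gene between Slc38a1 and Slc38a4. Of the 5 tested genes within 250 kb on either side, named after their values were seen, 1 was called. Arid2, a chromatin remodelling subunit beyond Slc38a1, fell by 1.09 (edgeR adjusted p = 0.0114). Scaf11 (-0.41, adjusted p = 0.0774) and AABR07058795.1 (0.59, 0.184), which lie nearer to Slc38a1, did not pass, nor did Amigo2 (-0.03, 0.900) and Pced1b (-0.05, 0.894) beyond Slc38a4.

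Per exon length, the make-up of the Slc38 carriers differed between the groups. Slc38a1 and Slc38a2 together made up 38.5%, 51.1% and 15.5% of the summed FPKM of the 4 Slc38 genes in GM 1, 2 and 3, and 8.20%, 10.0% and 9.23% in GZM. All GZM libraries were below GM 3, the lowest of GM, and the means differed by -25.9 percentage points (35.0% ± 18.1 against 9.15% ± 0.910, SD, n = 3 each, exact two-sided permutation p = 0.1, adjusted p = 0.15). Slc38a4 was 0.247 to 1.88 times the FPKM level of Slc38a2 in GM and 3.49 to 4.48 times in GZM. Slc38a3 was above Slc38a4 in all 6 libraries, by 1.79 to 3.09 times in GM and 1.57 to 1.64 times in GZM.

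Over all 10 genes, Slc38a3 and Slc38a4 took 33.9%, 22.6% and 60.0% of the summed FPKM in GM 1, 2 and 3 and 85.1%, 82.4% and 81.1% in GZM. The 5 genes that fell took 33.8%, 48.0% and 18.3% in GM and 3.13%, 2.68% and 3.06% in GZM. GZM libraries were thus close to each other, and GM 3 stood between them and the other GM libraries. By group mean the order in GZM was Slc38a3 (209 ± 4.88 FPKM), Slc38a4 (130 ± 3.05), Slc38a2 (33.4 ± 4.46), Slc7a7 (12.7 ± 1.22), Slc7a2 (11.9 ± 6.67), Slc7a6 (3.76 ± 0.862), Slc1a5 (3.71 ± 0.309), Slc7a5 (2.60 ± 0.726), Slc7a1 (1.30 ± 0.301) and Slc38a1 (0.690 ± 0.139), SD, n = 3. Of genes next to each other in that order, only Slc7a7 and Slc7a2, and Slc7a6 and Slc1a5, overlapped. Slc7a6 (3.01 to 4.70 FPKM) also overlapped Slc7a5 (2.14 to 3.44 FPKM), which is further down. In GM the order was Slc38a3 (76.4 ± 41.8 FPKM), Slc38a2 (48.1 ± 16.4), Slc38a4 (35.1 ± 21.5), Slc1a5 (32.6 ± 14.7), Slc7a5 (21.5 ± 12.2), Slc7a1 (19.5 ± 10.8), Slc7a7 (18.8 ± 4.72), Slc7a6 (15.7 ± 4.19), Slc7a2 (10.7 ± 4.18) and Slc38a1 (3.73 ± 1.16), and every neighbouring pair overlapped except Slc7a2 and Slc38a1.

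**Figure D3:**
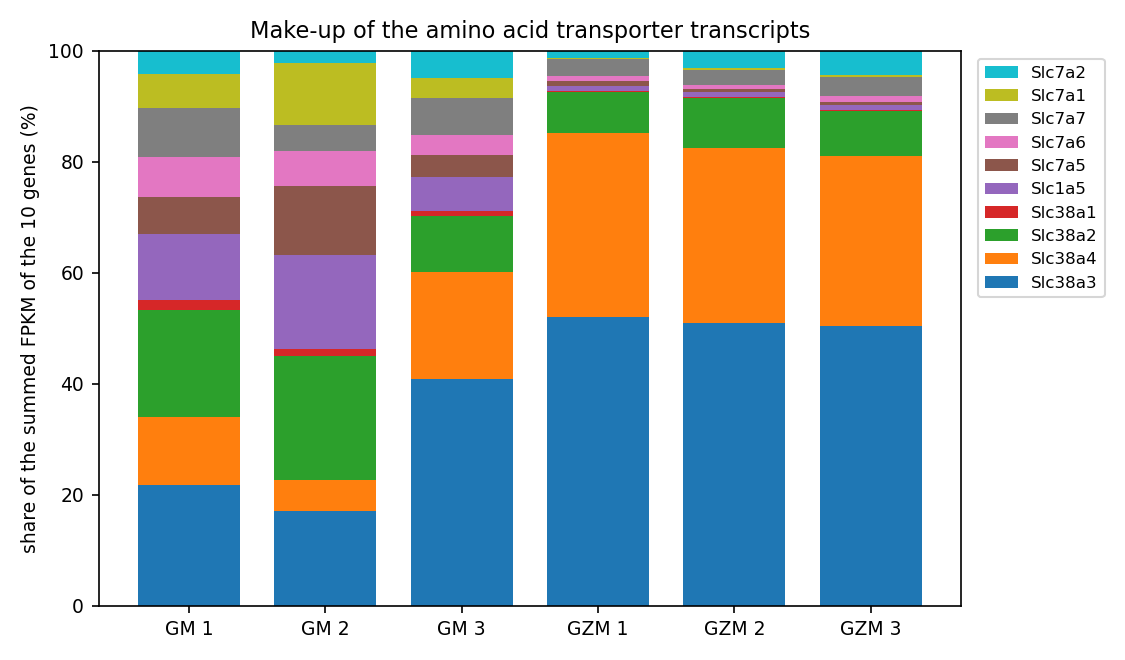
Share of the summed FPKM of the 10 genes taken by each gene (stacked bars, percent) in each of the 6 libraries. Slc38a3 and Slc38a4 together take 81.1% to 85.1% in the GZM libraries and 22.6% to 60.0% in the GM libraries, with GM 3 the closest to GZM.

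The order of the GM libraries was shared by many of the genes. For all 5 genes that fell, GM 3 was the lowest GM library, and for both genes that rose it was the highest. GM 2 was the highest GM library for 3 of the 5 (Slc7a1, Slc7a5 and Slc1a5). How often the other called genes show these orders was not counted, so they cannot be called particular to the transporters. In the same order of GM 1, 2 and 3, the cell division markers averaged 1.30, 1.76 and 0.23 after each marker's log2 CPM was centred on its own mean, and the hepatocyte markers at -1.49, -2.11 and -0.35. GZM 1 to 3 stood at -1.20, -1.06 and -1.04 for cell division and 1.30, 1.44 and 1.21 for hepatocytes. In the edgeR test all 10 hepatocyte markers rose (8 with library totals) and all 9 cell division markers fell, and the part of these cell types in the transporter changes was not tested.

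Markers of other cell types that use these carriers were measured as well. The 8 macrophage markers took 0.440% to 0.605% of counts in GM and 0.112% to 0.157% in GZM, with 5 lower and 2 higher. Of 7 T cell markers 1 fell, and they took 0.0342% to 0.0549% of counts in GM and 0.0172%, 0.00587% and 0.00783% in GZM 1, 2 and 3. Endothelial markers (7) took 0.0188% to 0.0311% in GM and 0.0245% to 0.0320% in GZM, with 5 higher, and with library totals none passed. Stellate cell and fibroblast markers (7) took 0.499% to 1.37% in GM and 0.141% to 0.308% in GZM, with 1 higher and 1 lower (median log2 fold change -1.02). Cholangiocyte markers (6) took 0.0179% to 0.0405% in GM and 0.00919% to 0.0163% in GZM, with 1 higher and 0 lower (median 0.55). With library totals, 6 stellate cell and fibroblast markers and 1 cholangiocyte marker were lower and 0 higher. No marker of these lists was at 0 in all libraries, and their part in the changes of Slc7a2, Slc7a7 and the other carriers was not tested.

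The remaining plasma membrane amino acid carriers also went both ways. Of 33 listed genes 18 were tested, 5 rose and 4 fell, with a median log2 fold change of 0.43. With library totals 2 rose and 8 fell, and on that scale 9.20% of all tested genes rose and 59.5% fell. Slc7a11, the cystine importer that feeds glutathione synthesis and another partner of Slc3a2, was at 19.8, 52.8 and 29.1 CPM in GM and 4.81, 3.87 and 3.77 CPM in GZM, and fell by 3.03 (edgeR adjusted p = 0.00229). The taurine carrier Slc6a6 fell by 1.29. Slc6a13, a liver carrier of taurine and GABA, rose by 3.61 and the glycine carrier Slc6a9 by 1.92. Slc7a8, another partner of Slc3a2 that carries neutral amino acids, fell by 0.96 (edgeR adjusted p = 0.0190), a call lost without GM 1 (-0.93, edgeR adjusted p = 0.0584) or GZM 2 (-0.77, 0.0719).

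Of 16 tested carriers of lysosomes, mitochondria and other inner membranes, 4 rose and 2 fell, with a median of 0.03 (2 higher and 11 lower with library totals). The mitochondrial ornithine carrier Slc25a15, which serves the urea cycle, rose by 2.74 and Slc25a38, a mitochondrial glycine carrier, by 1.42. The mitochondrial aspartate and glutamate carrier Slc25a13 (1.12) was called higher and its relative Slc25a12 (-0.63) lower, the first not with library totals or limma on FPKM and the second not without the low-count filter or when any library but GM 3 was left out. Slc38a10 (0.47), a relative of the Slc38 carriers, was called higher and turned to -0.36 with library totals. Its call was also lost without the low-count filter (edgeR adjusted p = 0.0816) and when any library but GM 3 was left out (0.0587 to 0.106). Among 20 genes of the amino acid response, the programme that Atf4 runs when amino acids run short, 3 rose and 4 fell (median -0.0047, and 1 and 13 with library totals). Of all tested genes, library totals called 9.20% higher and 59.5% lower. Atf4 itself was at 258, 467 and 326 CPM in GM and 299, 400 and 343 CPM in GZM, overlapping (log2 fold change -0.01, edgeR adjusted p = 0.976), and was called lower with library totals (-0.86, adjusted p = 0.0228) and in the 3 settings of limma on FPKM (-0.81 in each). Asparagine synthetase (Asns) fell by 2.58, and the serine synthesis enzymes Phgdh and Psat1 by 2.09 and 2.07, while the related factor Atf5 rose by 1.98. Cebpg (0.65), a partner of Atf4, was called higher and turned to -0.18 with library totals, and its call was lost without GM 1 (edgeR adjusted p = 0.0671), GZM 2 (0.0671) or GZM 3 (0.0576).

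Of 28 tested genes of the growth kinase complex mTORC1, its regulators and its amino acid sensors, 5 rose and 2 fell (median 0.09, and 1 and 17 with library totals). Sar1b rose by 1.31, Bmt2, which encodes a sensor of S-adenosylmethionine, fell by 1.39 and the leucine-sensor relative Sesn3 by 1.18. Lamtor2 (0.87) and Rheb (0.48), which hold and switch on mTORC1 at the lysosome, were called higher with TMM factors and not with library totals (0.06 and -0.35). The call of Rheb was also lost without the low-count filter (edgeR adjusted p = 0.0609) and without GM 1, GM 2, GZM 2 or GZM 3 (0.0540 to 0.108). Enzymes that use glutamine and arginine were higher in 9 of 17 cases and lower in 2 (median 0.67, and 7 and 7 with library totals). Gls2, a glutaminase of hepatocytes, was at 18.4, 9.83 and 29.1 CPM in GM and 92.9, 128 and 95.6 CPM in GZM, and rose by 2.46. Asl of the urea cycle rose by 2.90, Agmat by 2.68 and glutamate dehydrogenase (Glud1) by 1.32. Nos2, which makes nitric oxide from arginine and was named after its values were seen, fell by 2.35. All these called values had an edgeR adjusted p under the threshold. Each list's share called can be read against 44.0% of all tested genes with TMM factors. With library totals it can be read against 9.20% higher and 59.5% lower.

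**Figure D4:**
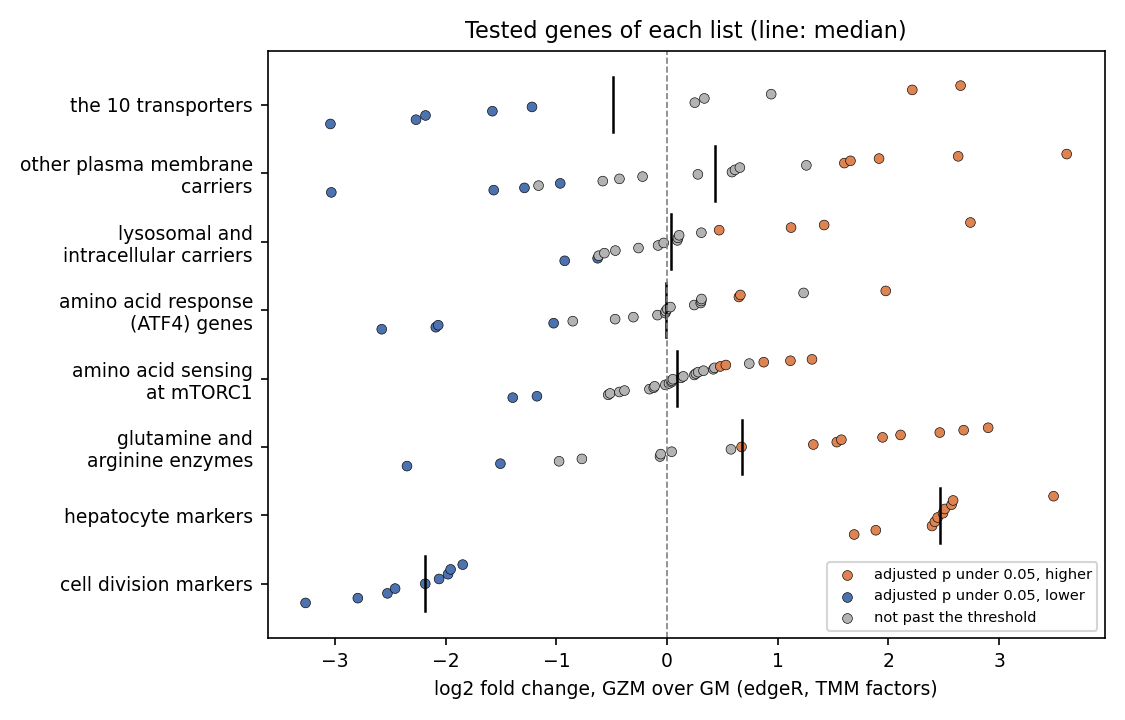
Log2 fold change in GZM over GM (edgeR, TMM factors) of each tested gene in 8 lists, orange where higher and blue where lower past the threshold, grey otherwise, with a line at each median. The 10 transporters split into 5 lower, 3 not called and 2 higher. Their median of -0.48 lies between those of the hepatocyte markers (2.47) and the cell division markers (-2.18). Single transporters reach past these medians, from Slc7a1 at -3.04 to Slc38a4 at 2.65.

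The genes most like each transporter over the 6 libraries were found among 14255 tested genes with a symbol, by the mean absolute difference in centred log2 CPM, which is 0 for identical profiles. The nearest to Slc38a3 were Serpind1 (0.0593) and Masp2 (0.0701), both of plasma proteins made in liver. Prg4 (0.0612) and Serpinc1 (0.0907), the gene of antithrombin, were nearest to Slc38a4. Slc7a1 was closest to AC141959.1 (0.0945) and Hspb7 (0.102), and Slc7a5 to S100a4 (0.0402) and L1cam (0.107). For Slc1a5 the nearest were Rad54b (0.0442), a DNA repair gene, and Lama5 (0.0573), a laminin chain. Slc7a6 was closest to Tent5a (0.0569) and Kif5b (0.0621), and Slc38a1 to Cnn2 (0.0764) and Tnik (0.0839). Among the genes that did not pass, Slc7a7 was closest to Dqx1 (0.0447) and Smarca2 (0.0554), Slc38a2 to Oxnad1 (0.0674) and Far2 (0.0791), and Slc7a2 to Psca (0.168) and Tspyl4 (0.204), the largest distances of the 10. These distances describe 6 libraries that share their group difference, and carry no test.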

How the data were processed

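Libraries were made from poly(A)-selected RNA with dUTP strand marking and read as pairs on Illumina instruments, per the labels' protocols. The aligner, the counter and its strand setting were not given in the sources used here. The submitters' processing notes name the build mRatBN 7.2, but positions on chromosome 1 of the table run past that build, so the build of the printed positions is not settled. The authors deposited 1 table with a read count, an FPKM value and an exon length per gene. Every FPKM value could be recomputed from the deposited counts, total and exon length within 0.01.

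Column names spell the zinc sulfide group ZGM and the labels GZM, and each column was matched to its sample by that name and number. Counts were tested with edgeR 4.0.16 (R 4.3.3) after filterByExpr, with TMM factors and the quasi-likelihood test, no covariate, and Benjamini-Hochberg adjustment over all 14298 tested genes at 0.05. TMM factors ran from 1.17 to 1.43 in GM and 0.715 to 0.793 in GZM. SE is the value implied by the quasi-F statistic. Shares and ratios used FPKM and exact permutation tests. The script was tested on simulated data.

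Named were all 10 transporters, Slc3a2, Atf4, the genes with the lowest p (at most 5) in each of 5 context lists, and the 2 most alike genes per transporter, except where the text says otherwise. A gene that this rule names is not reported here. The transporters and lists were chosen with earlier results of these data known. Alternatives were library totals, median-of-ratios factors, no low-count filter, a replicate block, DESeq2 1.42.0, limma 3.58.1 on log2(FPKM + 0.1) and log2(FPKM + 1), a minimum mean FPKM of 1, and leaving out each library. Leaving out GM 3 and GZM 1 together was added after the data were seen. Promoter sequences are from RefSeq (GRCr8).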

Additional observations from a re-analysis of the deposited data

How the results depend on the processing

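The 7 called transporters kept their direction and call in all 15 settings, but their size depended on scaling. With library totals all 7 moved by over 1.5 times. So did all but Slc38a4 with limma on log2(FPKM + 0.1), to -3.69 for Slc7a1, -2.89 for Slc7a5, -2.02 for Slc7a6, -3.003 for Slc1a5, -2.24 for Slc38a1 and 1.58 for Slc38a3, and Slc38a3 and Slc38a4 with limma on log2(FPKM + 1), to 1.56 and 2.04. Of the settings that leave out libraries, those without GM 3 moved Slc38a3 and Slc38a4 by over 1.5 times (3.01 and 3.46 with GZM 1 also left out), and no other called transporter moved that far. Library totals move the median of all genes by -0.83 (log2), and the values that turned are small ones: Slc7a7 to -0.56, Slc38a2 to -0.53, Slc38a10 to -0.36, Cebpg to -0.18 and Rheb to -0.35. With limma on log2(FPKM + 0.1), with and without a minimum mean of 1, and on log2(FPKM + 1), they were -0.53, -0.53 and -0.50 for Slc7a7, -0.47, -0.47 and -0.46 for Slc38a2, -0.36, -0.36 and -0.35 for Slc38a10, -0.18, -0.18 and -0.17 for Cebpg, and -0.35 in each for Rheb. Atf4 stood at 0.0057 with DESeq2, 0.017 with median-of-ratios factors, 0.021 with the replicate block, 0.12 without both GM 3 and GZM 1, 0.25 without GM 2, 0.095 without GZM 1 and 0.0088 without GZM 3, and ran from -0.19 to 0.25 with 1 library left out.

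The ratio of Slc3a2 to its light chains differed by 0.45 when counts were not divided by length, by -0.029 without GM 1, and from -0.029 to 0.28 with 1 library left out. The number called in the lysosomal and intracellular list, 6, became 13 with library totals, 12, 12 and 11 with the limma settings, 3 with the replicate block and 3 to 6 with 1 library left out. That of the amino acid response list, 7, became 14 with library totals, 13 with limma on log2(FPKM + 0.1) at a minimum mean of 1, and 4 to 8 with 1 library left out. That of the mTORC1 list, 7, became 18 with library totals, 17 in each limma setting, 4 with the replicate block and 4 to 6 with 1 library left out, and that of the other plasma membrane carriers, 9, became 5 to 10 with 1 library left out. Over all tested genes, 68.7% were called with library totals in place of 44.0%. Beyond the shift with library totals, the cause was not tested.

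Whether replicate numbers pair the samples could not be decided. Deviations of same-numbered samples correlated at -0.14, 0.16 and -0.27, and those of other pairs from -0.22 to 0.30. With so few samples, each centred on its group mean, such values cannot exclude a pairing. With the replicate block the transporters stayed at 2 higher and 5 lower, 5166 genes were called in place of 6285, and the calls of Slc38a10, Slc25a12 and Rheb were lost. Slc38a1 rests on 21 to 26 counts per GZM library, the lowest depth of the 10.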
